A study of Sus scrofa with 32 samples.

Results

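The subject is the response to an obesogenic diet that 3 vascular tissues of the same pigs had in common. For every pig, the log2 expression of each probe set was averaged over 3 samples: the LAD (the left anterior descending branch of the coronary arteries), the fat that surrounds it (PVAT, perivascular adipose tissue) and the TA (descending thoracic aorta), and this pig mean was compared between diets. The pigs were chosen by having a usable array of each tissue: 9 of the 11 pigs qualified, with 27 of the 32 arrays. Pig 63, a lean pig, had no TA array here, and the TA array of obese pig 57 carried epithelial transcripts, so both pigs were left out.

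All animals were juvenile Ossabaw miniature swine, a breed used as a model of childhood obesity. They were assigned to a diet at random at 5 to 6 weeks of age and fed it for 16 weeks, and the study's design text gives the age of the animals studied as 22 weeks. The obese group, 4 of the 9 pigs (51, 55, 81 and 85), ate a diet high in fat, with much high fructose corn syrup and added cholesterol. The lean group, 5 pigs (48, 56, 73, 80 and 86), ate a commercial low fat diet. The arteries were dissected free of fat and excess adventitia, and each array holds RNA from 1 tissue of 1 animal, so the replicates are animals. An obese LAD, PVAT or TA therefore differed from its lean counterpart in fat, fructose and cholesterol together. The sex of the animals is not given in the labels used here.

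As background, cells sense cholesterol through a pair of opposed systems. When membrane sterol is low, the transcription factor SREBP2 turns on the enzymes of the cholesterol pathway. When sterol accumulates, oxysterols activate the liver X receptors (LXR), which turn on exporters such as the ABCA1 pump and lipid carriers such as PLTP. The type I interferon response is a separate program, which switches on antiviral effectors such as RSAD2 and ISG15 and the peptide-processing machinery of antigen presentation, and vessels, fat and their resident macrophages can all mount it.

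The data are log2 expression values of 14327 probe sets, of which the 10029 with the highest mean level were tested. The contractile smooth muscle list averaged 12.22 to 12.65 in obese and 12.48 to 12.71 in lean TA arrays, and 12.45 to 12.53 in obese and 12.72 to 12.84 in lean LAD arrays. Adipocyte genes were higher in PVAT, with a list mean of 8.91 to 10.94 in obese and 9.82 to 11.01 in lean PVAT, against 7.98 to 8.34 in obese and 7.83 to 8.16 in lean TA. The adiponectin (ADIPOQ) probe set was no guide to fat, since it read between 10.39 and 11.00 in all 27 arrays. Heart muscle genes varied widely between single pigs in LAD and PVAT, and their list mean in PVAT ran between 8.76 and 12.45 for obese pigs and between 6.54 and 12.30 for lean pigs. It stayed between 7.01 and 7.41 in the TA arrays of the 9 pigs. RNA quality moved with the diet. The 28S/18S ribosomal RNA ratio, averaged over the 3 tissues of a pig, was 0.997 to 1.04 in the 4 obese pigs and 1.18 to 1.38 in the 5 lean pigs (exact two-sided permutation p = 0.0159, the smallest that 4 against 5 pigs allow). In 4 of the 27 arrays, all from obese pigs, the ratio lay below 0.8 (pig 51 PVAT, pig 55 LAD, pigs 81 and 85 TA). Since the ratio separated the diets completely, diet and RNA quality cannot be told apart on the pig mean. With the ratio as a covariate no probe set passed, the smallest adjusted p of the limma fit being 0.842. Counts of list members that passed with the pig as a block are given below with and without the 4 low-ratio arrays.

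Few single genes passed on the pig mean, and all of them were higher in obese pigs. By limma with Benjamini-Hochberg adjustment over all 10029 probe sets, 4 probe sets passed an adjusted p of 0.05, which is 0.0399% of those tested. They were the 2 probe sets that the authors' symbols annotate to PLTP, PRCP and the unnamed probe set Ssc.9683.1.A1_at. Each was higher in obese pigs in each of the 3 tissues. On leaving out each pig in turn, 0 to 81 probe sets passed, with 81 without pig 81, 5 without pig 56 and 0 without any of the other pigs. With no filter on low values the count was 0, with a smallest adjusted p of 0.0634. At an adjusted p below 0.1 by limma there were 58 probe sets, of which 46 were higher and 12 lower in obese pigs, and 52 had the same sign in each tissue. At an unadjusted p below 0.05, 556 probe sets were higher (5.54%) and 739 lower (7.37%) in obese pigs, 1295 in all where chance alone would give 501. The sign was the same in each tissue for 1822 probe sets higher (18.2%) and 2613 lower (26.1%) in obese pigs.

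The same question can be asked of the 27 single arrays, with the pig as a random block. That fit estimates the spread of a probe set from 27 values instead of 9 and assumes 1 correlation within a pig for all genes, which came to 0.1379. For a gene whose arrays agree more than that within a pig, its p is too small. For ISG15 the SE was 0.27 on the pig mean, against 0.28 in LAD, 0.32 in PVAT and 0.28 in TA. For RSAD2 it was 0.36, against 0.47, 0.43 and 0.27. Averaging narrowed the spread of these interferon genes little, so the block fit may overstate how clearly such genes passed. In the block fit 197 probe sets passed, 160 higher (1.60%) and 37 lower (0.369%) in obese pigs, and the 4 named above were among them. Of the 197, 148 were higher and 37 lower in obese pigs in each of the 3 tissues, and 12 changed sign between tissues. Without the 4 arrays of low 28S/18S ratio, an alternative chosen after seeing the data, 160 passed, 147 higher and 13 lower in obese pigs. With 1 pig left out, 56 (without pig 55) to 257 (without pig 81) passed as higher. As lower, 7 (without pig 51) to 139 (without pig 81) passed. The list counts given below for these settings are to be read beside these totals. Below, "passed" without further words refers to the pig mean, and genes that passed with the pig as a block are named as such.

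PLTP, the phospholipid transfer protein that moves phospholipid between lipoproteins and is a classic LXR target, had the smallest p of all probe sets. Its probe set Ssc.11187.1.S1_at had pig means of 9.02, 9.18, 9.02 and 8.98 in obese pigs, against 8.38, 8.27, 8.47, 8.37 and 8.54 in lean pigs. The groups were far apart, and the spread within either diet was small. PLTP rose by 0.64 log2 units in obese pigs (SE 0.07, 1.56-fold, limma adjusted p = 0.0375). In LAD it read 9.40, 9.82, 8.94 and 8.93 in obese pigs and 8.46 to 8.68 in lean pigs, and in TA 8.57, 8.67, 9.17 and 9.07 in obese pigs and 7.34 to 8.33 in lean pigs. In PVAT the distance was smaller, with 8.94 to 9.10 in obese and 8.60 to 8.77 in lean pigs, but the diets did not overlap there either. The other probe set annotated to PLTP, Ssc.8997.1.A1_at, averaged 8.96 ± 0.12 in obese (SD, n = 4) and 8.37 ± 0.10 in lean pigs (n = 5), a difference of 0.59 (SE 0.08, limma adjusted p = 0.0419). The name of the first probe set is not settled, because the platform annotation gives it the symbol ICAM1. For the second, that annotation gives no symbol. It gives the symbol PLTP to the probe set that the authors' symbols call CTSA. That probe set had pig means of 8.29, 8.38, 7.60 and 7.88 in obese pigs and 7.31 to 7.71 in lean pigs. The diets therefore overlapped in the probe set that the platform names PLTP.

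PRCP, a lysosomal and endothelial carboxypeptidase that cleaves angiotensin II and activates prekallikrein, rose by 0.52 (SE 0.07, 1.43-fold, limma adjusted p = 0.0419). Pig means were 9.97, 10.09, 9.95 and 9.99 in obese pigs, against 9.63, 9.49, 9.50, 9.43 and 9.34 in lean pigs. The obese-minus-lean difference was 0.83 in LAD, 0.15 in PVAT and 0.59 in TA. In PVAT the diets overlapped, the obese pigs reading 9.99 to 10.32 and the lean pigs 9.89 to 10.25. The unnamed probe set Ssc.9683.1.A1_at rose by 0.71 (SE 0.08, limma adjusted p = 0.0375). It had pig means of 10.69, 10.78, 10.63 and 10.89 in obese pigs and 9.86 to 10.17 in lean pigs.

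**Figure D1:**
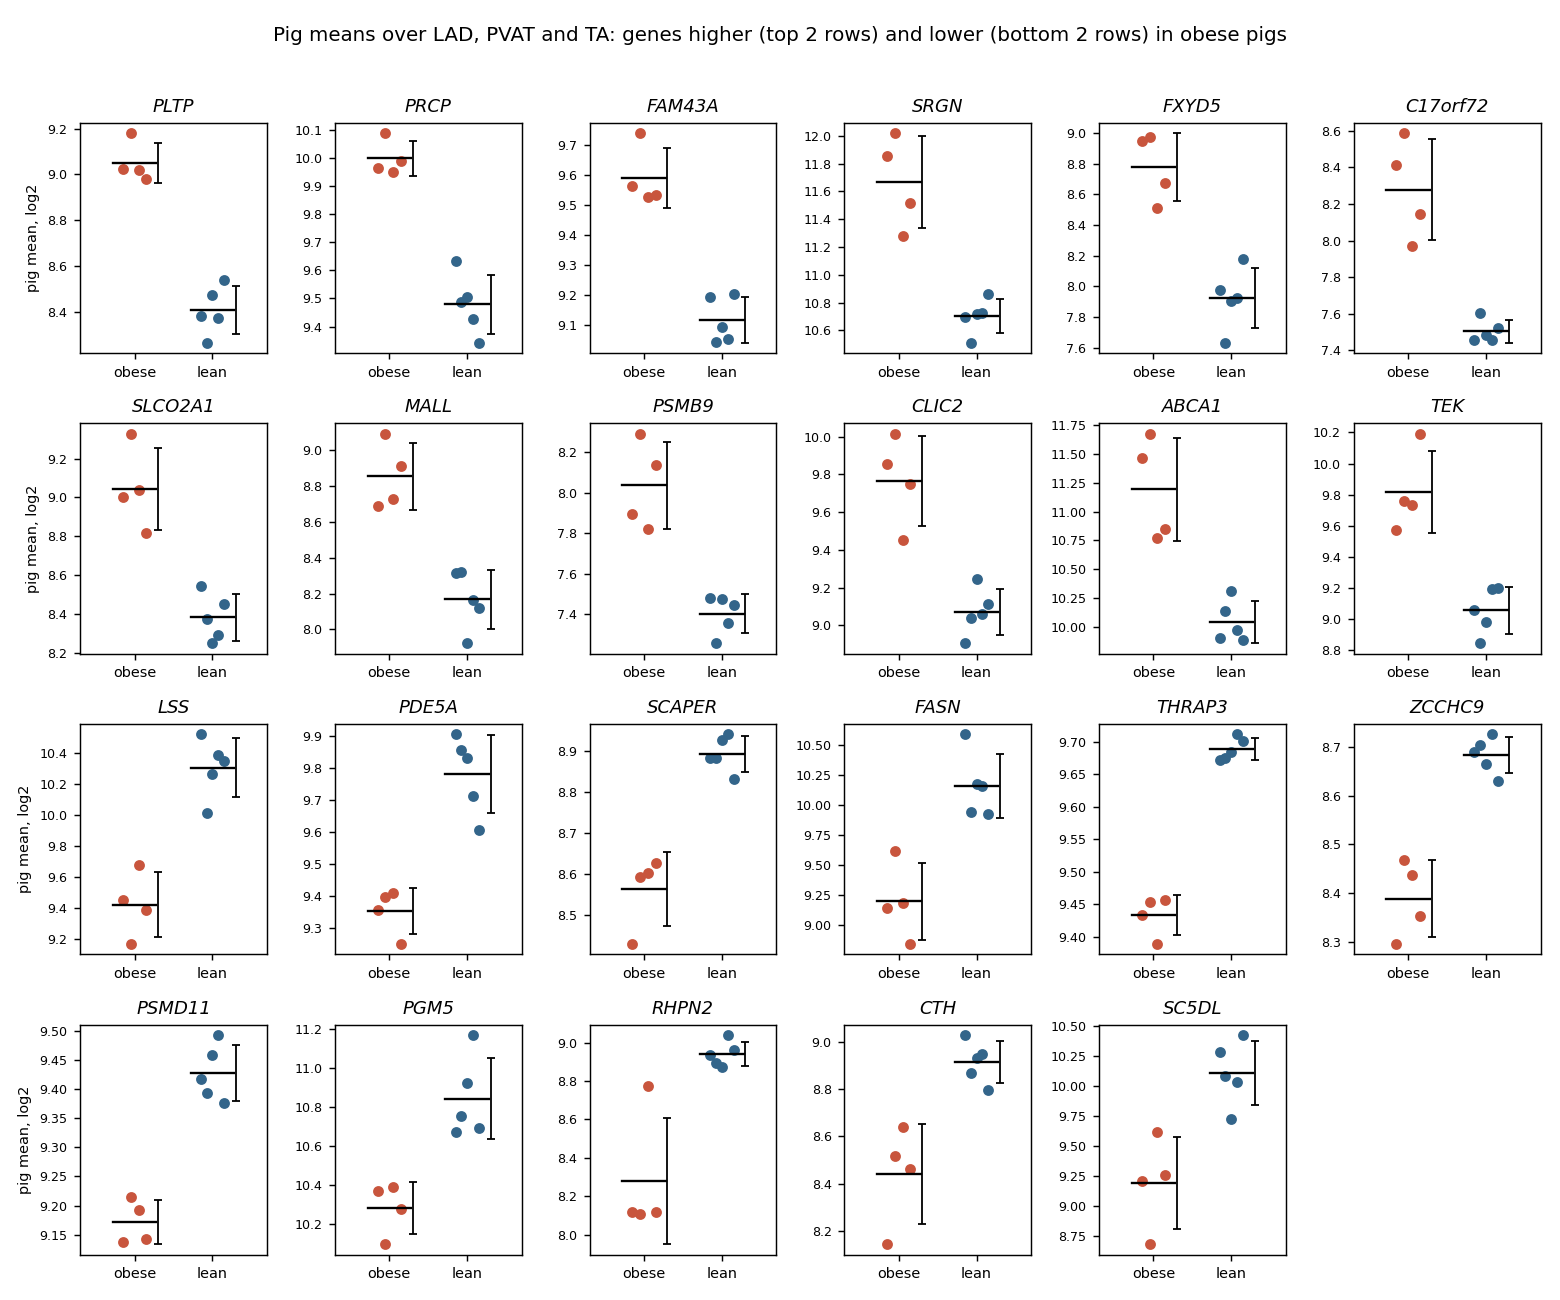
Pig means over LAD, PVAT and TA (log2, y axis) of 12 genes higher and 11 genes lower in obese pigs, with 1 point per pig (4 obese left, 5 lean right), the group mean as a bar and the SD beside it; each panel has its own y axis. PLTP sits between 8.98 and 9.18 in obese pigs and between 8.27 and 8.54 in lean pigs, and for ABCA1 the obese pigs spread from 10.77 to 11.67.

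Among the genes of cholesterol export and LXR, 13 of 20 listed genes were tested and all 13 differences were above 0 on the pig mean, with a median of 0.44 against -0.02 over all tested probe sets. Of the 13, 7 were higher in each tissue, against 18.2% of all tested probe sets, and the median was 0.68 in LAD, 0.16 in PVAT and 0.39 in TA. PLTP passed, by the probe set whose name is not settled, and no other member did. With the pig as a block 5 passed, against 1.60% of all tested probe sets, among them PLTP, ABCA1, SMPDL3A and NR1H3. That count was 4 without the 4 low-ratio arrays and 2 to 5 on leaving out each pig in turn. ABCA1, the pump that loads cellular cholesterol onto apolipoprotein A-I, had pig means of 11.47, 11.67, 10.77 and 10.85 in obese pigs, against 9.90, 10.14, 10.31, 9.97 and 9.89 in lean pigs. The lowest obese pig was above the highest lean pig, and pigs 51 and 55 were the highest. The difference was 1.15 (SE 0.19, 2.22-fold, limma adjusted p = 0.0713, and 0.000355 with the pig as a block). ABCA1 read 10.51 to 11.82 in obese and 9.49 to 10.04 in lean LAD, 10.87 to 11.89 in obese and 10.47 to 10.79 in lean PVAT. In TA it read 10.70 to 11.31 in obese and 9.49 to 10.22 in lean pigs. It was therefore higher in every obese array than in any lean array of the same tissue.

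That complete separation in each of the 3 tissues was met by 5 probe sets, all higher in obese pigs, and by none in the other direction. They were PLTP (Ssc.11187.1.S1_at), ABCA1, SAMD9, the Bruton kinase inhibitor IBTK and the unnamed Ssc.2641.1.S1_at, and IBTK and Ssc.2641.1.S1_at are named here after their values were seen. IBTK averaged 8.96 ± 0.06 in obese (SD, n = 4) and 8.27 ± 0.53 in lean pigs (n = 5), so its lean values were widely spread (limma adjusted p = 0.241). On the pig mean alone, 224 probe sets were higher in each obese pig than in any lean pig (2.23%) and 312 were lower in each (3.11%).

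The other genes of the list had smaller or less even differences. NR1H3, which encodes LXR alpha itself, differed by 0.44 (SE 0.14). APOE, the apolipoprotein of cholesterol-loaded macrophages, differed by 2.82 in LAD, -0.54 in PVAT and 0.03 in TA, and its mean of 0.77 (SE 0.34) did not pass either fit. The lysosomal cholesterol carriers NPC1 and NPC2 differed by 0.11 and 0.25 on the pig mean and by -0.37 and -0.09 in PVAT.

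Genes of cholesterol synthesis and uptake were lower in obese pigs in all 3 tissues. Of 27 listed genes 23 were tested, 19 were lower in each tissue, against 26.1% of all tested probe sets, and 1 (SCAP, the sterol sensor that escorts SREBP) was higher in each. None passed on the pig mean, and 18 had an unadjusted p below 0.05 in the lower direction, against 7.37% of all tested probe sets. With the pig as a block 7 passed, against 0.369%, among them LSS, SC5DL, PMVK, SQLE, MSMO1 and IDI1. The median difference was -0.54, with -0.65 in LAD, -0.45 in PVAT and -0.54 in TA. The list mean overlapped between the diets in each tissue. On the pig mean it overlapped narrowly, with 8.498 to 9.133 in obese and 9.127 to 9.625 in lean pigs. Without the 4 low-ratio arrays the median was -0.45 and 1 gene passed with the pig as a block. On leaving out each pig in turn, between 1 and 16 members passed with the pig as a block and the median stayed between -0.64 and -0.48.

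LSS, lanosterol synthase, which closes the sterol ring system, came nearest to passing of the lower genes. Its pig means were 9.45, 9.17, 9.68 and 9.39 in obese pigs, against 10.52, 10.01, 10.26, 10.39 and 10.35 in lean pigs, and the diets did not overlap. The difference was -0.88 (SE 0.12, limma adjusted p = 0.0534, and 0.0288 with the pig as a block, but 0.158 with the block and without the low-ratio arrays), with -0.83 in LAD, -1.15 in PVAT and -0.67 in TA.

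SQLE, squalene epoxidase, a rate-controlling step of the pathway, differed by -1.28 (SE 0.33). IDI1, which interconverts the isoprene building blocks, differed by -1.22 (SE 0.34), and SC5DL (now SC5D), a late sterol desaturase, by -0.92 (SE 0.19). SC5DL did not pass with the pig as a block without the low-ratio arrays (limma adjusted p = 0.0832). PMVK, the phosphomevalonate kinase, differed by -0.65 (SE 0.15). Its obese pigs read 7.50 to 7.76, but lean pig 56 read 7.69 where the other lean pigs read 8.39 to 8.43. SREBF2, the gene of SREBP2, differed by -0.47 (SE 0.10) with no overlap between the diets. INSIG1, the SREBP target that retains the SREBP complex in the endoplasmic reticulum, differed by 0.29 in LAD, -1.19 in PVAT and -0.72 in TA, so its sign was not shared.

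**Figure D2:**
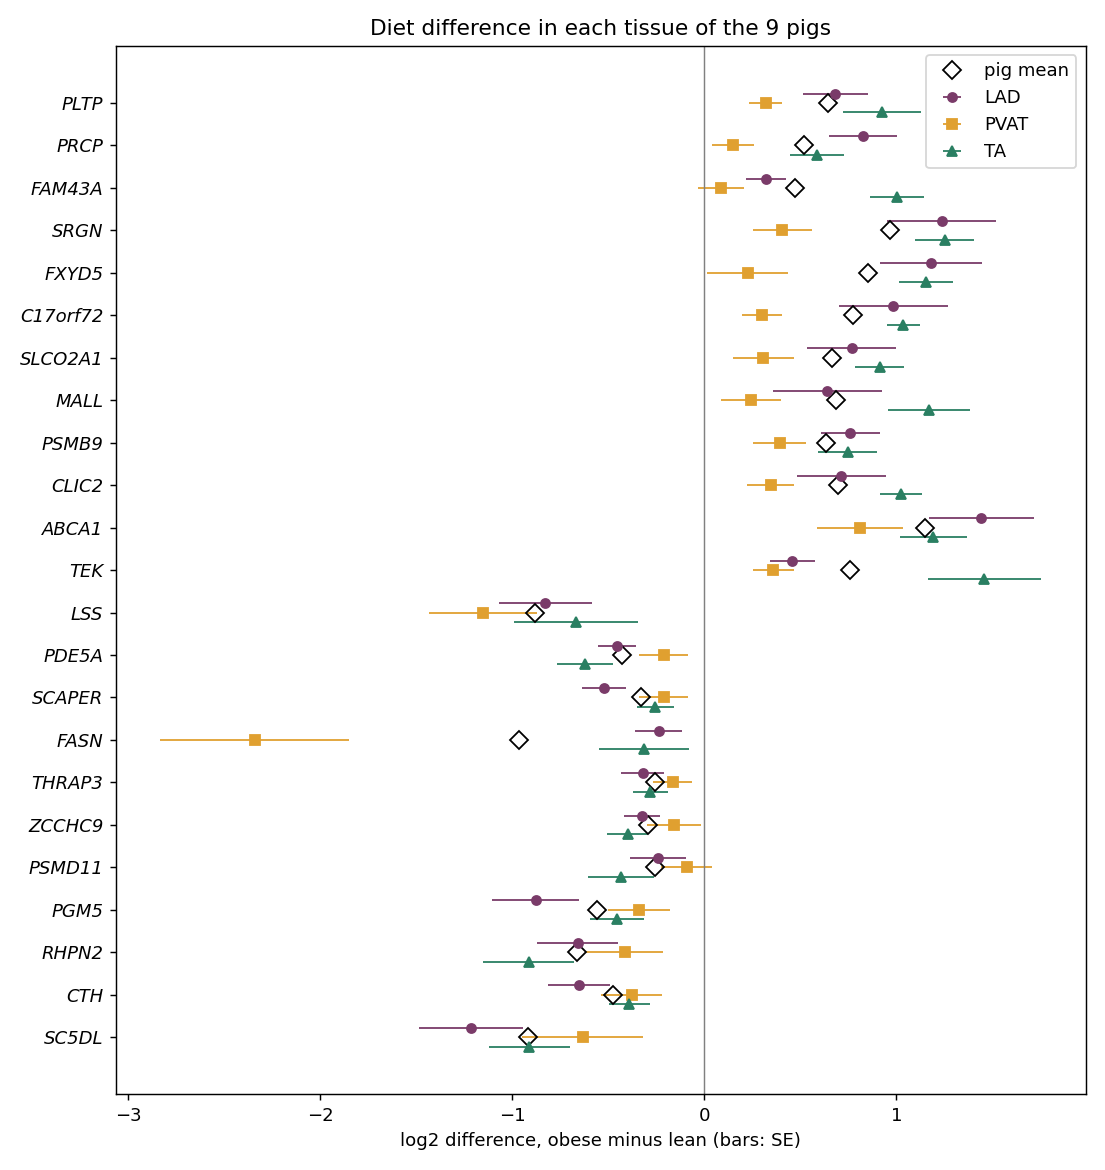
Obese-minus-lean difference (log2, x axis) of 23 genes in LAD (circles), PVAT (squares) and TA (triangles) of the 9 pigs, with the SE as bars, and on the pig mean (open diamonds). The genes were chosen for a shared sign in the 3 tissues, so that their side of 0 is fixed by the choice. The PVAT differences of the upper genes are the smallest of the 3, and FASN reaches -2.34 in PVAT.

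Interferon-response genes were higher in obese pigs in all 3 tissues. Of 54 listed genes 25 were tested. Of these 24 were higher in each tissue, against 18.2% of all tested probe sets, and 1, XAF1, was lower in each. None passed on the pig mean, 22 had an unadjusted p below 0.05 in the higher direction, against 5.54% of all tested probe sets, and 21 passed with the pig as a block, against 1.60%. The median difference was 0.62, with 0.63 in LAD, 0.50 in PVAT and 0.64 in TA. The list mean overlapped between the diets in PVAT (8.96 to 9.74 in obese and 8.56 to 9.08 in lean pigs) but not in LAD or TA. Without the 4 low-ratio arrays the median was 0.62 and 16 members passed with the pig as a block. Leaving out each pig in turn gave 12 to 21 such members and medians of 0.49 to 0.71.

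RSAD2, the antiviral radical SAM enzyme viperin, had the largest difference of the list. Its pig means were 9.35, 9.53, 7.79 and 9.13 in obese pigs, against 7.57, 7.16, 7.16, 6.44 and 6.51 in lean pigs. Obese pig 81 was the lowest of its group and lay nearer to the highest lean pig than to the other obese pigs. The difference was 1.98 (SE 0.36, limma adjusted p = 0.0922, and 0.000355 with the pig as a block), with 1.95 in LAD, 1.72 in PVAT and 2.27 in TA. In TA all lean arrays read below 6.64, the log2 of an intensity of 100, so no fold is given. ISG15, the ubiquitin-like protein that interferon induces, had pig means of 9.88, 10.39, 8.94 and 10.04 in obese pigs and 8.76, 8.76, 8.20, 8.20 and 8.25 in lean pigs. It differed by 1.38 (SE 0.27, limma adjusted p = 0.0944, and 0.000355 with the pig as a block).

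SAMD9, an interferon-induced antiviral factor to which the platform annotation gives only a locus name, had differences of 0.84 in LAD, 0.80 in PVAT and 0.74 in TA, and of 0.79 on the pig mean (SE 0.14, limma adjusted p = 0.0805). Of the other interferon-induced genes, HERC6 differed by 0.88, OAS1 by 1.42, IFIT3 by 1.14, IFIT1 by 0.91 and MX1 by 0.82 on the pig mean. The antigen-processing genes of the list were higher as well. PSMB9, an immunoproteasome subunit, averaged 8.04 ± 0.22 in obese (SD, n = 4) and 7.40 ± 0.10 in lean pigs (n = 5), and differed by 0.63 (SE 0.10, limma adjusted p = 0.0705). The peptide transporter TAP1 differed by 0.62 (SE 0.13). The transcription factors STAT2, IRF1 and IRF9 differed by 0.22, 0.46 and 0.56, of which STAT2 did not pass with the pig as a block.

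**Figure D3:**
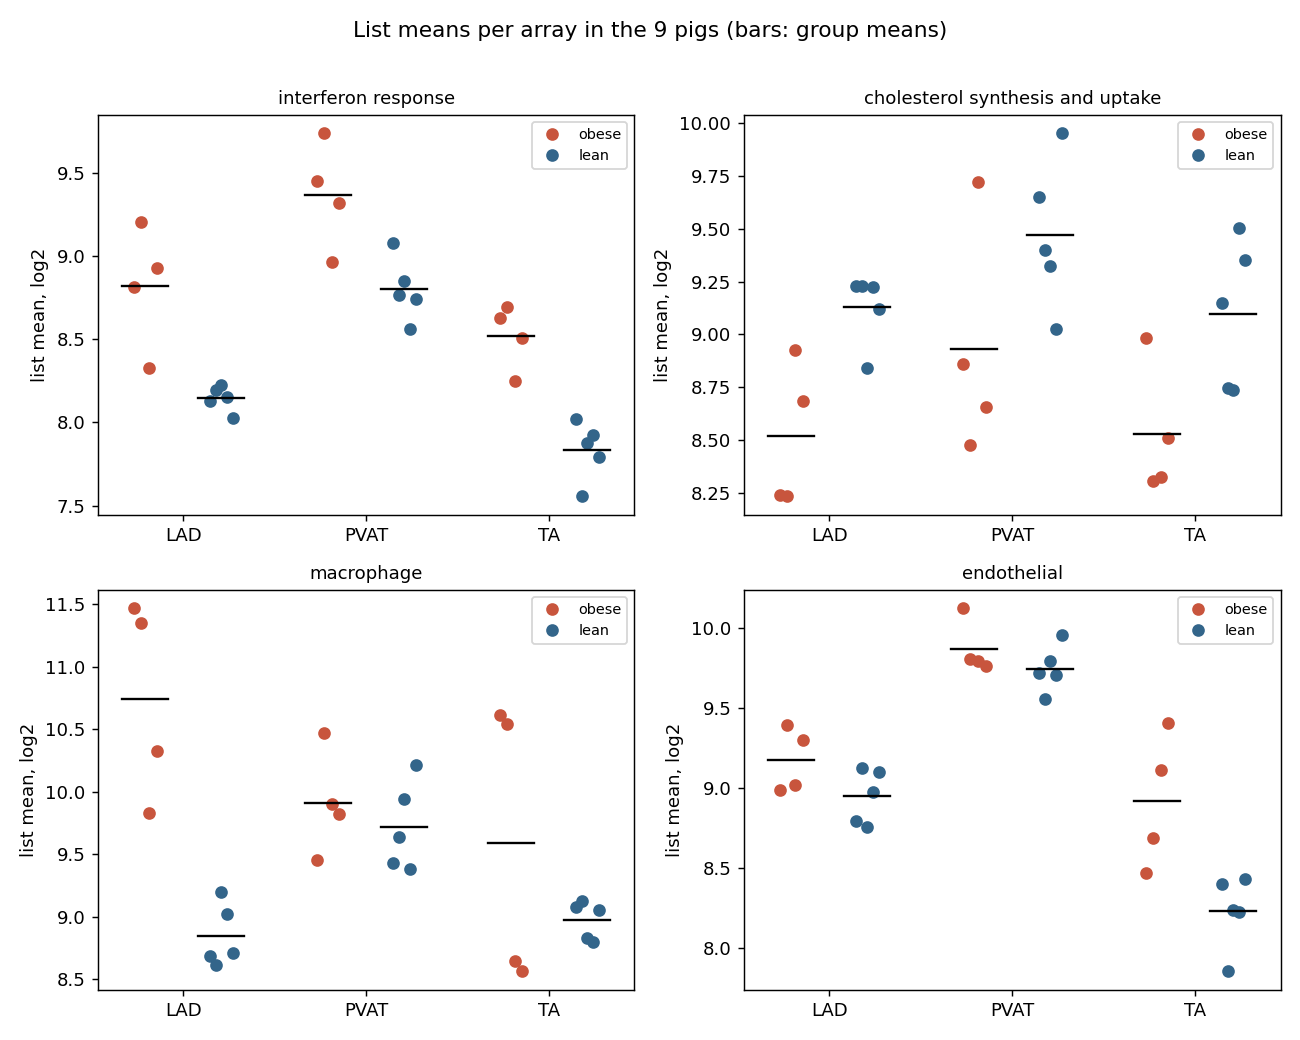
Mean log2 level of 4 gene lists (y axis) in each array of the 9 pigs, by tissue (x axis), obese left and lean right within a tissue, with the group mean as a bar. Every obese array lies above every lean array for interferon genes in LAD (8.33 to 9.20 against 8.03 to 8.23) and TA (8.25 to 8.70 against 7.56 to 8.02). In PVAT the interferon ranges overlap (8.96 to 9.74 against 8.56 to 9.08), and the cholesterol ranges overlap in each tissue. Obese TA splits into 2 high and 2 low arrays for macrophage genes.

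Several genes with a small p belong to none of these lists. SRGN, the proteoglycan core protein of leukocyte granules, had pig means of 11.85, 12.02, 11.28 and 11.52 in obese pigs, against 10.51 to 10.86 in lean pigs, and differed by 0.96 (SE 0.14, limma adjusted p = 0.0568). FXYD5, a regulator of the sodium pump, differed by 0.85 (SE 0.13, adjusted p = 0.0568 by limma). C17orf72, which the platform annotation calls ICAM2, an endothelial and leukocyte adhesion molecule, differed by 0.77 (SE 0.11, adjusted p = 0.0568 by limma). SLCO2A1, the prostaglandin uptake carrier, differed by 0.66, MALL by 0.69, CLIC2 by 0.69 and FAM43A by 0.47. The 12 higher genes were chosen for a shared sign, and the difference in PVAT was the smallest of the 3 for each of them. None but PLTP and PRCP passed on the pig mean, and each passed with the pig as a block. Without the low-ratio arrays MALL did not (limma adjusted p = 0.156, difference 0.44).

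Markers of other cell types also moved with the diet, and in these bulk samples a change in the number of cells of a type and in RNA per cell cannot be told apart. Of 26 macrophage genes 15 were tested, and 14 were higher in each tissue, against 18.2% of all tested probe sets. None passed on the pig mean, and 6 passed with the pig as a block (CTSS, LAPTM5, TYROBP, CYBB, LGALS3 and SPP1), against 1.60%. The median difference was 0.88, but it was uneven, with 1.89 in LAD, 0.20 in PVAT and 0.62 in TA. The macrophage list mean was 9.83 to 11.47 in obese and 8.61 to 9.20 in lean LAD. In TA it was 10.62 and 10.54 in obese pigs 51 and 55 but 8.65 and 8.56 in obese pigs 81 and 85, against 8.79 to 9.13 in lean pigs. Pigs 81 and 85 are the pigs whose TA arrays had a low 28S/18S ratio, and they are also the obese pigs of the third sacrifice date. In PVAT the diets overlapped, with 9.45 to 10.47 in obese and 9.38 to 10.21 in lean pigs. Without the 4 low-ratio arrays 12 members passed with the pig as a block and the median was 1.13. That setting keeps only pigs 51 and 55, the high ones, in obese TA. Leaving out each pig in turn gave 0 to 10 members.

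CTSS, the cysteine protease cathepsin S of antigen-presenting cells, had pig means of 12.55, 12.63, 11.49 and 11.85 in obese pigs, against 10.96 to 11.28 in lean pigs. It differed by 1.02 (SE 0.22), with 1.94 in LAD, 0.29 in PVAT and 0.82 in TA. SPP1, the matrix protein osteopontin, differed by 1.39 (SE 0.42), and C1QA, a complement C1q chain, by 0.66 (SE 0.19), of which 1.67 was seen in LAD and 0.11 in TA. Of 24 tested lysosome genes 5 passed with the pig as a block, against 1.60% of all tested probe sets, with the cathepsins CTSZ (0.87, SE 0.23) and CTSH (0.71, SE 0.17) among them. That count was 6 without the low-ratio arrays and 0 to 9 on leaving out each pig in turn. The list's median was 0.51 in LAD and 0.00 in PVAT. Among 11 tested NF-kB genes 3 passed with the pig as a block, against 1.60% of all tested probe sets. They included VCAM1, the endothelial adhesion molecule for monocytes, which differed by 0.64 in LAD, -0.14 in PVAT and 0.91 in TA. The NF-kB count was 2 without the low-ratio arrays, where VCAM1 did not pass (limma adjusted p = 0.112), and 0 to 3 on leaving out each pig. The part of cell composition in the interferon and LXR differences was not tested. PVAT, where the macrophage median was 0.20, had an interferon median of 0.50 and an LXR median of 0.16. The LXR list mean was 9.42 to 10.13 in obese and 9.57 to 9.95 in lean PVAT, so the diets overlapped there, while ABCA1 differed by 0.81 (SE 0.22).

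Endothelial genes were higher in obese pigs, with the highest median in TA. Of 18 tested, 14 were higher in each tissue, against 18.2% of all tested probe sets, and 2, TEK and PLVAP, passed with the pig as a block, against 1.60%. The median was 0.19 in LAD, 0.10 in PVAT and 0.68 in TA, and 0.37 on the pig mean. Without the low-ratio arrays it was 0.19 on the same scale, and 1 member passed, PLVAP being lost (limma adjusted p = 0.151). TEK, the angiopoietin receptor, had pig means of 9.58, 9.76, 9.74 and 10.19 in obese pigs, against 8.85 to 9.20 in lean pigs. It differed by 0.76 (SE 0.12, limma adjusted p = 0.0713), with 0.46 in LAD, 0.36 in PVAT and 1.46 in TA. In TA it read 8.42 and 8.89 in obese pigs 51 and 55, and 9.26 and 9.98 in obese pigs 81 and 85, whose TA arrays had a low ratio, against 7.04 to 7.97 in lean pigs. PLVAP, which forms the diaphragms of endothelial fenestrae, differed by 0.71 (SE 0.14). The endothelial nitric oxide synthase NOS3 differed by 0.39 (SE 0.17), with 0.08 in LAD, 0.02 in PVAT and 1.07 in TA. It did not pass either fit, and without the low-ratio arrays its difference was 0.13.

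Contractile smooth muscle genes were a little lower in obese pigs. All 24 tested differences were below 0 on the pig mean, and the median was -0.21. In each tissue 19 were lower, against 26.1% of all tested probe sets, and 2 passed with the pig as a block, against 0.369%. PGM5 (-0.34 and -0.56 by its 2 probe sets), a protein of the muscle membrane attachment sites, and PDE5A (-0.29 and -0.43 by its 2 probe sets), the cyclic GMP phosphodiesterase, passed with the pig as a block. Without the low-ratio arrays none of the 24 list members passed, and neither probe set of PGM5 did (limma adjusted p = 0.0766 and 0.14). The PDE5A probe set of lower level, Ssc.21536.2.S1_at, read 9.36, 9.40, 9.41 and 9.25 in obese pigs and 9.61 to 9.91 in lean pigs (limma adjusted p = 0.0753, and 0.0373 with the block and without the low-ratio arrays). MYH11, smooth muscle myosin, differed by -0.22 (SE 0.07), with -0.48 in PVAT and -0.07 in TA.

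**Figure D4:**
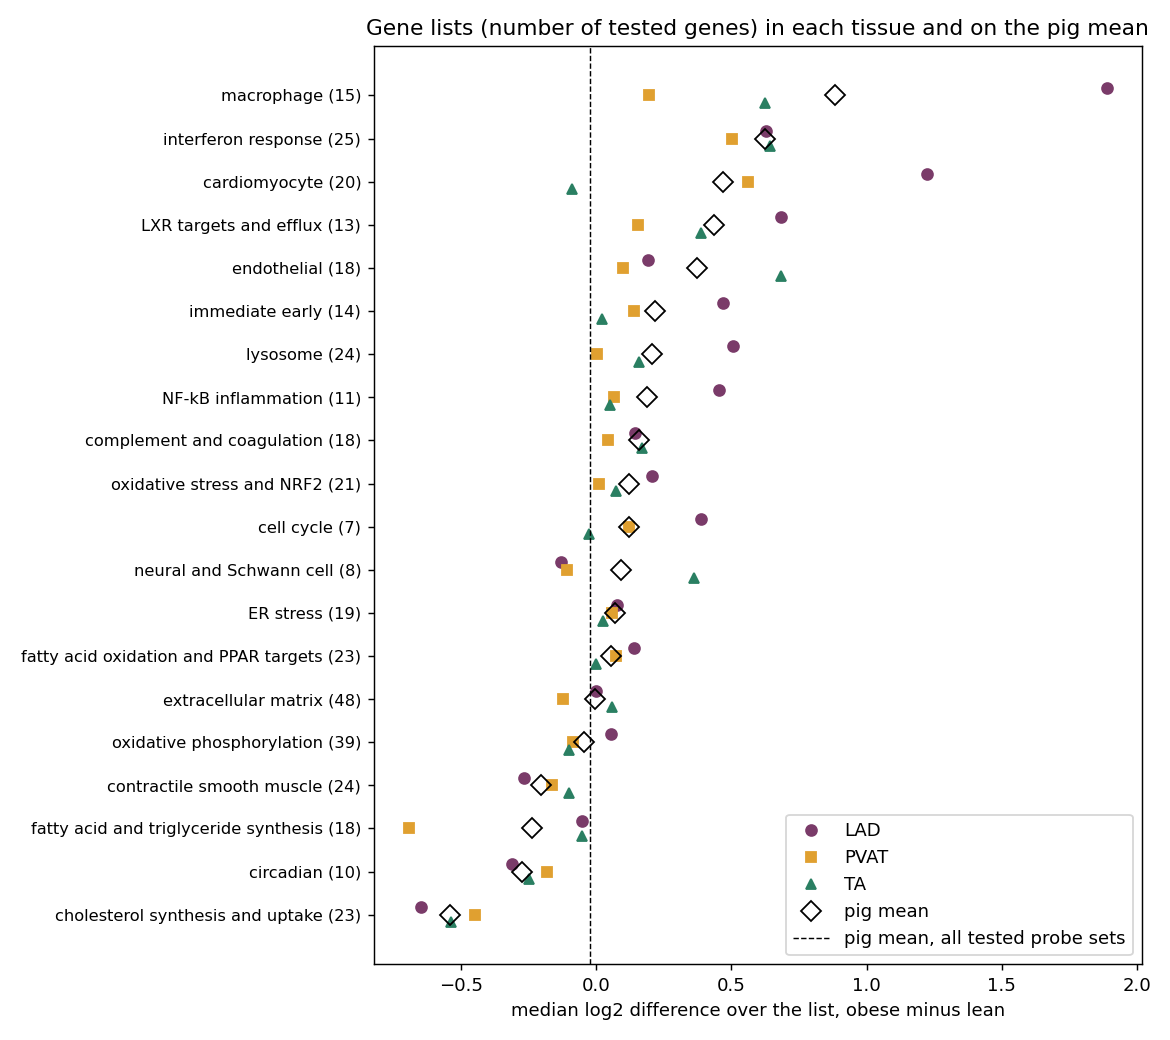
Median obese-minus-lean difference (log2, x axis) of each gene list in LAD (circles), PVAT (squares), TA (triangles) and on the pig mean (diamonds), with the number of tested genes in brackets and the median of all tested probe sets as a dashed line at -0.02. The interferon and cholesterol lists have their 3 tissues close together, whereas the macrophage list runs from 0.20 in PVAT to 1.89 in LAD.

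Several of the lower genes lie outside the sterol pathway. THRAP3, a spliceosome-associated protein, averaged 9.43 ± 0.03 in obese (SD, n = 4) and 9.69 ± 0.02 in lean pigs (n = 5), a difference of -0.26 (SE 0.05, limma adjusted p = 0.0805). SCAPER (-0.33), ZCCHC9 (-0.29) and PSMD11, a proteasome lid subunit (-0.26), were of like size, and of these only SCAPER passed with the pig as a block (limma adjusted p = 0.0254, and 0.205 without the low-ratio arrays). CTH, the hydrogen sulfide-producing cystathionine gamma-lyase, differed by -0.47 (SE 0.10, limma adjusted p = 0.101, and 0.01 with the pig as a block, but 0.108 without the low-ratio arrays). RHPN2 differed by -0.66, although obese pig 81 read 8.77 where the other obese pigs read 8.11 to 8.12 and the lean pigs 8.87 to 9.04. It passed with the pig as a block (limma adjusted p = 0.0239, and 0.00682 without the low-ratio arrays, a setting that drops the TA array of pig 81). None of the 11 lower genes passed on the pig mean.

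Genes of fat metabolism gave mixed values. FASN, fatty acid synthase, had pig means of 9.14, 9.61, 9.18 and 8.84 in obese pigs, against 10.59, 9.95, 10.17, 10.16 and 9.93 in lean pigs, a difference of -0.96 (SE 0.17, limma adjusted p = 0.0805, and 0.0311 with the pig as a block, but 0.136 without the low-ratio arrays). The difference was -2.34 in PVAT, where obese pigs read 8.69 to 11.08 and lean pigs 11.31 to 12.98, and -0.24 in LAD and -0.31 in TA (adjusted p of the diet-by-tissue test 0.207 by limma). Of 18 tested genes of fatty acid and triglyceride synthesis, 9 were lower in each tissue, against 26.1% of all tested probe sets, and 1, FASN, passed with the pig as a block, but 0 without the low-ratio arrays. The median was -0.05 in LAD, -0.69 in PVAT and -0.05 in TA. SCD, the stearoyl-CoA desaturase, differed by 0.97 in LAD and -1.79 in PVAT. Among 23 tested genes of fatty acid oxidation and PPAR targets the median was 0.05. CPT1A, the gate of mitochondrial fatty acid import, passed with the pig as a block, also without the low-ratio arrays (limma adjusted p = 0.0454): its pig means were 10.20, 10.53, 9.92 and 9.92 in obese pigs and 9.15 to 9.81 in lean pigs, with 0.73 in LAD, 0.78 in PVAT and 0.65 in TA. ANGPTL4, an inhibitor of lipoprotein lipase, differed by 0.89 (SE 0.26), and did not pass either fit.

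Whether the diet difference itself varied between tissues was tested with an F test of the diet-by-tissue term over the 27 arrays, with each pig as a block. By limma 3 probe sets passed (0.0299%), SMPDL3A, C1orf54 and LIPA, and 608 had an unadjusted p below 0.05. Leaving out 1 pig at a time gave 0 to 68 probe sets, with 68 without pig 81 and 0 without pig 48, 51 or 55. SMPDL3A, a secreted phosphodiesterase induced by LXR, differed by 4.42 (SE 0.60) in LAD, 0.19 (SE 0.51) in PVAT and 2.88 (SE 1.03) in TA (adjusted p = 0.0438 by limma). In LAD it read 12.46, 12.22, 9.40 and 11.11 in obese pigs and 5.81 to 7.71 in lean pigs. In TA obese pigs 51 and 55 read 11.32 and 11.43, and obese pigs 81 and 85 read 6.59 and 6.56, near the lean range of 5.90 to 6.50. Pigs 81 and 85 are those whose TA arrays had a low 28S/18S ratio, and the obese pigs of the third sacrifice date. LIPA, the lysosomal acid lipase that frees cholesterol from its esters, differed by 1.59 (SE 0.31) in LAD, -0.01 (SE 0.31) in PVAT and 0.79 (SE 0.28) in TA (adjusted p = 0.00442 by limma). C1orf54 differed by 0.80 (SE 0.10) in TA, -0.14 in LAD and -0.02 in PVAT. For the interferon genes RSAD2 and ISG15 and for the sterol gene LSS the adjusted p of this test was 1.00 by limma, which does not show that their differences were equal.

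The remaining lists gave no member that passed either fit, although 2 complement and coagulation genes and 1 circadian gene passed with the block once the low-ratio arrays were left out. The median was 0.47 for 20 cardiomyocyte genes (1.22 in LAD, 0.56 in PVAT and -0.09 in TA), -0.27 for 10 circadian genes, 0.22 for 14 immediate early genes, 0.16 for 18 complement and coagulation genes and 0.12 for 21 oxidative stress and NRF2 genes. It was 0.12 for 7 cell cycle genes, 0.09 for 8 neural and Schwann cell genes, 0.07 for 19 endoplasmic reticulum stress genes, 0.03 for 3 epithelial genes, -0.01 for 48 matrix genes, -0.04 for 39 oxidative phosphorylation genes and -0.14 for 4 adipocyte genes. The single tested skeletal muscle gene, ACTA1, differed by 0.26, and no mesothelial gene and no gene of the lymphocyte lists (B and plasma cell; T and NK cell) was tested. POSTN, the matrix protein periostin, was 0.67 higher (SE 0.11, limma adjusted p = 0.0739), with 1.72 in LAD, -0.39 in PVAT and 0.67 in TA. CXCL14, a chemokine, passed with the pig as a block (limma adjusted p = 0.0129) although its sign was not shared, with 2.49 in LAD, -0.25 in PVAT and 1.71 in TA.

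The pigs were killed on 3 dates, which gave 1 obese against 1 lean pig, 1 against 1, and 2 against 3. The interferon median within the dates was 1.04, 0.53 and 0.48, the cholesterol median -0.70, -0.66 and -0.40, the LXR median 0.86, 0.60 and 0.05, and the macrophage median 1.74, 1.43 and 0.27. Within the dates PLTP differed by 0.91, 0.64 and 0.54, ABCA1 by 1.54, 1.56 and 0.75 and LSS by -0.84, -1.07 and -0.80. With date as a block term no probe set passed on the pig mean, and the smallest adjusted p of the limma fit was 0.0578.

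LAD and PVAT arrays of the 2 pigs left out took no part in the pig mean or its ranking, but they are in the series whose earlier results guided the choice of lists, and a single pig of each diet allows no test. The LAD and PVAT arrays of obese pig 57 had a ribosomal RNA ratio below 0.8, and those of lean pig 63 lay above it. Diet and RNA quality therefore cannot be told apart in this pair either. In obese pig 57 minus lean pig 63, averaged over LAD and PVAT, 11 of the 12 higher genes were above 0 and 7 of the 11 lower genes below 0. The median over all tested probe sets was -0.04, so more of them lay below 0 than above, and their share was not counted. Of the higher genes FAM43A went the other way (-0.05), and of the lower genes CTH (0.18), PDE5A (0.16), THRAP3 (0.09) and PGM5 (0.025). IBTK, fully separated in the 9 pigs, differed by -0.75. ABCA1 differed by 0.92, PLTP by 0.35, RSAD2 by 1.85, ISG15 by 1.21 and SC5DL by -1.01. The list medians in this pair were 0.43 for interferon, -0.62 for cholesterol, 0.16 for LXR and 0.71 for macrophage genes, against -0.04 over all tested probe sets.

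**Figure D5:**
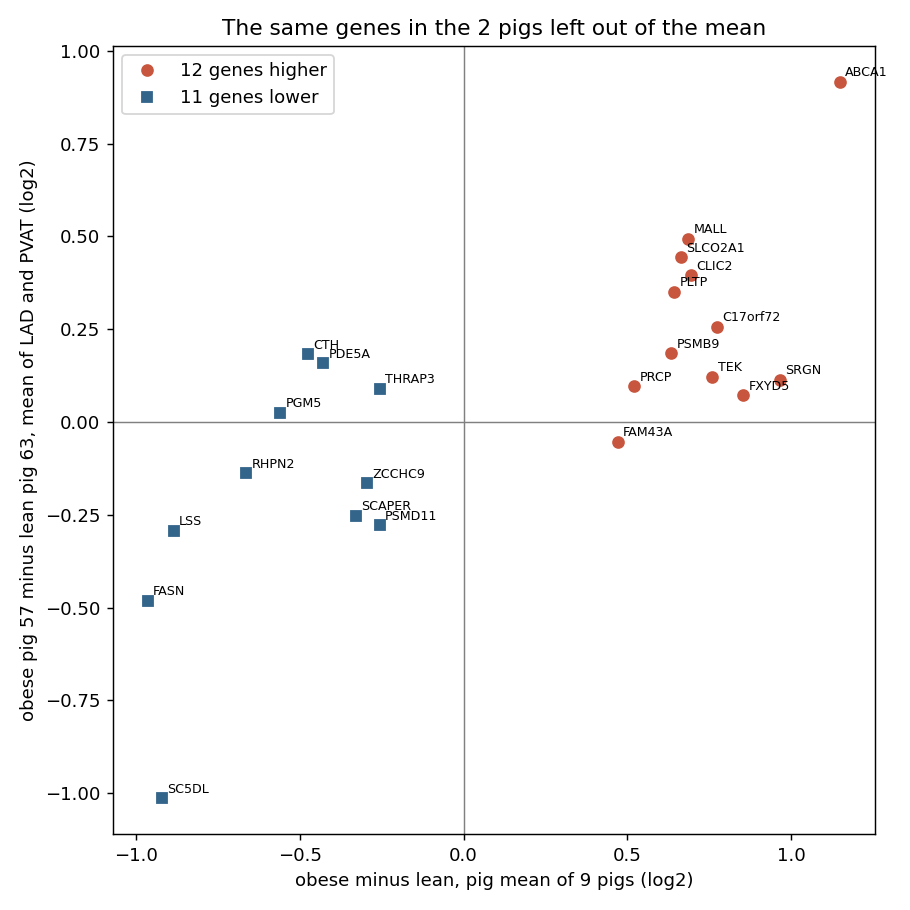
Difference of obese pig 57 minus lean pig 63 over LAD and PVAT (log2, y axis) against the obese-minus-lean difference on the pig mean of the 9 pigs (log2, x axis), for 12 higher genes (circles) and 11 lower genes (squares). The higher genes lie between -0.05 and 0.92 and the lower genes between -1.01 and 0.18 on the y axis, with ABCA1 and SC5DL at the extremes.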

How the data were processed

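Total RNA from LAD, PVAT and TA was measured on Affymetrix porcine arrays. The deposited values are log2 expression summaries, made by the authors with affy, per the submitters' processing notes; its version, the background correction and the normalization are not given in the sources used here, and no alternative background correction could be run. All arrays carry 1 hybridisation date. Symbols are those the authors paired with the probe sets. Among the genes named here, a platform symbol that names another gene is given for PLTP, C17orf72, CTSA, TYMS and MCM7 of the cell cycle list. COX8A and SAMD9 have only a locus name there. No sequence or genome position was used. Before testing, the 30% of probe sets of lowest mean level were dropped.

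The pig mean was compared with limma 3.58.1 (lmFit, eBayes; R 4.3.3), two-sided, Benjamini-Hochberg adjusted over 10029 probe sets, and a probe set passed below 0.05. The block is the animal: deviations of its LAD and TA arrays from their group means correlated by 0.19 to 0.47, LAD and PVAT by -0.09 to 0.41, and PVAT and TA by -0.23 to 0.30. The diet-by-tissue F test assumes equal spread in the 3 tissues. The scripts were tested on simulated data. No fold is given where a group mean, in any tissue, lies below 6.64. A list gene with several probe sets enters by the one of highest mean level. Named genes are up to 12 per direction with the same sign in each tissue (those that passed, then by p), up to 4 per list, and 18 fixed genes; some of the genes so chosen are not reported here. The members, lists and named genes were chosen with earlier results of these data known. Values are log2 differences, obese minus lean, with SE, and levels are mean ± SD; the number of arrays limits the precision.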

Additional observations from a re-analysis of the deposited data

Results flagged for a closer look

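Some single pigs stood apart from the rest of their group in the pig mean, by Dixon's criterion at the 95% level, which chance meets in about 1 group in 20. Of 150 gene and diet groups tested, 5 met it. RHPN2 read 8.77 in obese pig 81, with the other obese pigs at 8.11 to 8.12. HSPA5, the endoplasmic reticulum chaperone BiP, read 12.12 in obese pig 85, with the others at 12.22 to 12.23. PMVK read 7.69 in lean pig 56, with the others at 8.39 to 8.43. In lean pig 48, NCF1, a subunit of the phagocyte NADPH oxidase, read 8.22 with the others at 8.38 to 8.42. In the same pig TYMS, thymidylate synthase, read 9.19 with the others at 8.16 to 8.46. The platform annotation gives the TYMS probe set the symbol ENOSF1.

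The diet difference varied between tissues for 3 probe sets by limma's diet-by-tissue F test, with adjusted p = 0.00442 for LIPA, 0.0438 for SMPDL3A and 0.0438 for C1orf54. The LIPA difference was 1.59 in LAD, -0.01 in PVAT and 0.79 in TA.

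In data outside the pig mean, the 6 measured epithelial genes averaged 11.16 in the TA array of obese pig 57, against 6.94 to 7.44 in the other obese and 6.54 to 7.52 in the lean TA arrays.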

How the results depend on the processing

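The count of probe sets that passed on the pig mean was 4 and changed with most settings. It was 0 with no filter on low values, 7 with the lower 50% left out, 9 with quantile normalization within tissues and 12 with array medians subtracted. It was 2 for LAD and PVAT alone, 153 for LAD and TA, 1 for PVAT and TA, 0 with pig 57 added and 1 for LAD and PVAT of all 11 pigs. It was 0 with date as a block term, 0 with the 28S/18S ratio and 1 with the cardiomyocyte list mean as covariate, 197 with the pig as a replicate block over 27 arrays, 186 over 32 arrays and 160 without the 4 low-ratio arrays. Leaving out 1 pig gave 0 to 81, with 81 without pig 81, 5 without pig 56 and 0 without any of the other 7. The replicate-block count of 197 ran from 64 (without pig 51) to 396 (without pig 81), and was 73 without pig 55, 108 without 48, 99 without 73 and 90 without 80. The diet-by-tissue count of 3 was 0 with no replicate block, 0 with pig 57 added and 0 to 68 without 1 pig, the 68 without pig 81. The cause of these moves was not tested.

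For the named genes, 1662 values under alternatives kept direction and side of the threshold, 155 passed newly, 62 no longer passed and 31 turned sign, with an adjusted p of 0.453 or more in each of these 31. Turned values were, for LAD and PVAT alone, CDH1 -0.050 and MBP -0.19 (over all 11 pigs -0.11 and -0.12); for LAD and TA, KRT8 0.038 and SCD 0.52; for PVAT and TA, APOE -0.26 and CDH1 -0.074. With pig 57 added KRT8 was 0.28, over 32 arrays 0.30, and with the date term CDH1 was -0.011. With the 28S/18S covariate ADIPOQ was -0.017, CASQ2 0.47, CDH1 -0.84, HLF 0.064, HSPA5 -0.039, MBP -0.36, NDUFB9 0.13 and SCD 0.53. With the cardiomyocyte covariate ACTA1 was -0.16. Without the 4 low-ratio arrays CDH1 was -0.064, COX8A 0.0077, LAMA2 0.022 and SCD 0.058. Without 1 pig at a time ACTA1 ran from -0.15 to 0.57, CDH1 from -0.12 to 0.15, KRT8 from -0.26 to 0.18 and SCD from -0.59 to 0.039.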
